A study of Mus musculus with 6 samples.

Results

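Type A intercalated nuclei were taken from droplet counts of nuclear RNA in the kidney cortex of mice, with 3 knockout and 3 control libraries. Across both groups, 103 of 61939 kept nuclei passed the marker rule, 64 of them in knockout and 39 in control libraries. A barcode was kept with at least 300 detected genes and at most 5% of its unique molecular identifiers (UMIs, each counting 1 captured RNA molecule) from mitochondrial genes. A kept nucleus was called type A when it held at least 3 UMIs in all of Slc4a1, Kit, Aqp6 and Clnk, with at least 2 of these genes detected. It also had to hold 0 UMIs of Slc26a4 (type B intercalated cells), Ptprc (leukocytes) and Flt1 (endothelium), and at most 1 UMI each of Slc12a1, Slc12a3, Slc34a1 and Aqp2 (thick ascending limb, distal convoluted tubule, proximal tubule and principal cell).

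Type A intercalated cells are the acid-secreting cells of the connecting tubule and collecting duct. A vacuolar proton pump in their apical membrane moves acid into the urine, and the anion exchanger encoded by Slc4a1 returns bicarbonate to the blood, while carbonic anhydrase 2 (Car2) supplies both from carbon dioxide and water. Type B cells carry pendrin (Slc26a4) in the apical membrane and secrete bicarbonate instead, and both types depend on the forkhead factor Foxi1.

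All mice were of the FVB/N strain. The knockout mice carried Podocin-Cre with Klf4 fl/fl, so that the recombinase acts in podocytes, and the control mice carried Klf4 fl/fl with no Cre named. Both groups thus share the floxed allele, and the Cre driver is one of podocytes, not of intercalated cells. The sources used here give no age, sex or number of animals per library, and nothing states that the libraries of a group came from separate mice, so the p-values measure the spread between libraries alone.

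Klf4, the targeted gene, had 0 UMIs in the type A nuclei of every library. A count of 0 allows up to 41.0 CPM (UMIs of the gene scaled to the UMI total of the nuclei, as usual) in the knockout and 66.1 CPM in the control type A nuclei, by a floor of 3 UMIs per group. Over all kept nuclei Klf4 had 5.18, 1.39 and 4.13 CPM in knockouts 1, 2 and 3, against 2.67, 1.35 and 1.88 CPM in controls 1, 2 and 3. The overlap of these values is no check of podocytes, and the sources used here do not give the deleted part of the gene.

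The libraries numbered 1 stood apart from the others. They held 22069 (knockout 1) and 19645 (control 1) kept nuclei, against 3845 to 6064 in each of the other libraries, and a median of 1.02% and 2.50% mitochondrial UMIs, against 0.0851 to 0.162% in the others. Kept nuclei held 52464533, 9346798 and 12578595 UMIs in all in knockouts 1, 2 and 3, and 59443446, 8144894 and 12210250 in controls 1, 2 and 3. Pairs of libraries shared 5 to 121 kept cell barcodes, and no barcode was called type A in more than 1 library. Proximal tubule markers also differed in the type A nuclei: 21 listed genes outside the rule took 0.708, 0.344 and 0.302% of type A UMIs in the knockouts, against 1.70, 0.719 and 0.491% in the controls. The part of these differences in the results below was not tested.

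The type A nuclei numbered 20, 14 and 30 in knockouts 1, 2 and 3, and 5, 11 and 23 in controls 1, 2 and 3. Their UMIs summed to 30066, 11615 and 31472 in the knockouts, against 9608, 8897 and 26879 in the controls. A type A nucleus had a median of 964 UMIs. Before the exclusion genes were applied, 142, 33 and 59 knockout nuclei and 181, 39 and 66 control nuclei had the markers. Slc34a1, the proximal tubule phosphate transporter, was over its limit in 111, 19 and 22 of these in the knockouts, and in 170, 24 and 40 in the controls. At the limit of the rule, 8, 4 and 11 knockout and 2, 5 and 6 control nuclei held exactly 3 marker UMIs. Just outside it, 14, 3 and 10 knockout and 2, 4 and 6 control nuclei held 2.

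Of the genes of the rule, Kit, a receptor tyrosine kinase, was detected in 90 of the 103 nuclei. Clnk, an adaptor protein of immune receptor signalling, was detected in 86. Aqp6, an intracellular water and anion channel of these cells, was detected in 46. The basolateral exchanger Slc4a1 was detected in 28. The nuclei were therefore chosen mostly by Kit and Clnk: 66 held 2 of the genes, 30 held 3 and 7 held all 4. These values were used to choose the nuclei and are given as a description. Kit was detected in 8.24% and Clnk in 11.97% of the type B nuclei described below, against 2.27% and 1.94% of proximal tubule nuclei. The type B exchanger gene Slc4a9 was detected in 36 of 90 type A nuclei with Kit and 1 of 13 without it. By Clnk it went the other way, at 26 of 86 and 11 of 17. Whether some of the type A nuclei were type B nuclei with no captured Slc26a4 was not tested.

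Since the rule reads Kit, which mast cells also carry, and Slc4a1, which red cells carry, 12 genes of mast and erythroid cells were counted. They had 1 UMI in the knockout and 1 UMI in the control nuclei. Among type B genes, Hmx2, a homeobox factor, had 0 UMIs, and Insrr, an alkali-sensing receptor of type B cells, had 1 UMI in 1 nucleus of control 3.

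Genes outside the rule were compared with those of 376 type B nuclei, chosen by at least 2 UMIs of Slc26a4 with the mirrored exclusions, and with all other kept nuclei. These classes were chosen by marker genes of the same counts, so the comparison is a description without a test, and levels are CPM of the summed UMIs of a class in a library. Dmrt2, a transcription factor of type A cells, had 133, 86.1 and 159 CPM in knockouts 1, 2 and 3 and 104, 112 and 149 CPM in controls 1, 2 and 3. Its 16 UMIs came from 13 nuclei, and the type B nuclei held 0 UMIs of it. Slc26a7, a basolateral chloride and bicarbonate exchanger, had 166, 431 and 191 CPM in the knockouts and 208, 450 and 223 CPM in the controls. It had 28 UMIs in type A and 1 UMI in type B nuclei.

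Adgrf5, an adhesion receptor of the acid-secreting cell, was detected in 87 of 103 type A nuclei. Its level was 1031, 1808 and 3495 CPM in knockouts 1, 2 and 3, against 1561, 1798 and 3051 CPM in controls 1, 2 and 3. The mean over 6 libraries was 2124 ± 944 CPM in type A and 83.1 ± 52.3 CPM in type B nuclei (SD, n = 6). Every type A sum lay above the type B sum of its library. The related receptor Adgrf1 had 193 ± 139 CPM in type A and 29.7 ± 17.5 CPM in type B nuclei, and was absent from the counts of control 1 type A nuclei. Calcr, the calcitonin receptor, had 29 UMIs in type A and 1 UMI in type B nuclei. Rhcg, an ammonia channel, had 487 ± 202 CPM in type A and 241 ± 88.0 CPM in type B nuclei and was higher in type A in all 6 libraries.

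**Figure D1:**
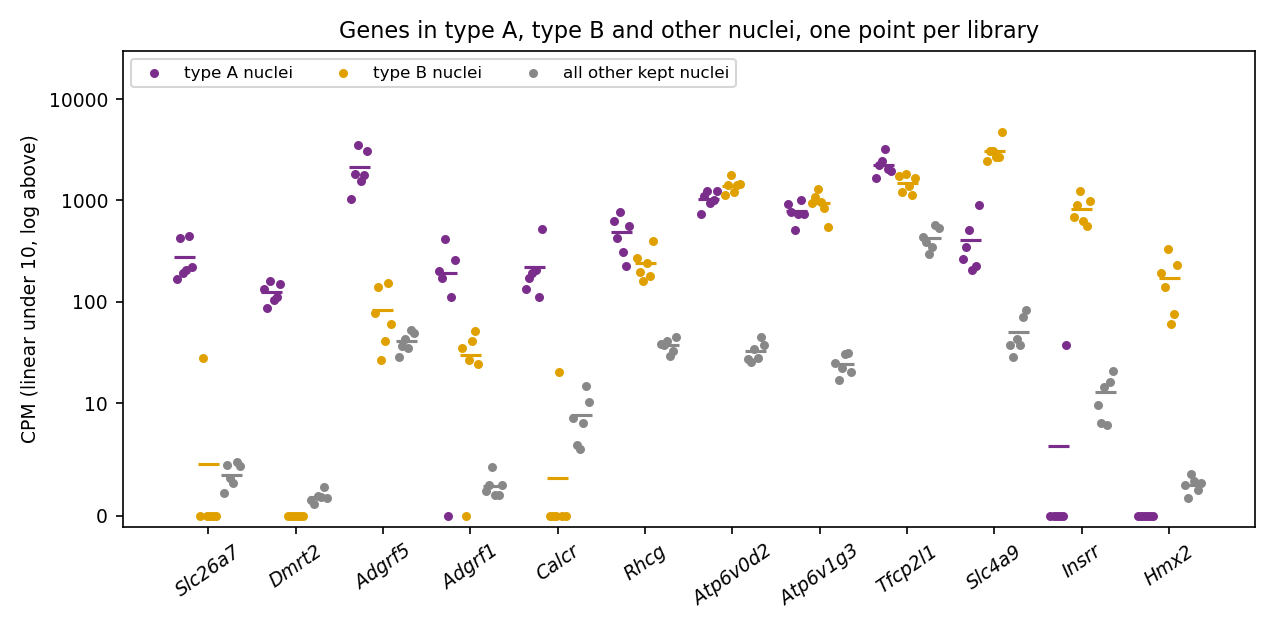
CPM (vertical axis, linear under 10 and logarithmic above) of 12 genes outside the type A rule in type A nuclei, type B nuclei and all other kept nuclei; each point is 1 of 6 libraries and each bar the mean. Dmrt2, Slc26a7 and Adgrf5 lie higher in type A than in type B nuclei, Atp6v0d2 lies lower in type A in all 6 libraries, and Hmx2 is at 0 in type A.

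On the type B side, Slc4a9, the basolateral exchanger of type B cells, had 407 ± 262 CPM in type A and 3110 ± 833 CPM in type B nuclei. It was lower in type A in all 6 libraries but was still detected in 37 of the 103 nuclei. Slc4a9 ran between 28.6 and 82.6 CPM in all other nuclei. Insrr had 357 UMIs in the type B nuclei, and Hmx2 had 82. Not every gene listed as type A was higher there: Hepacam2, an adhesion molecule of intercalated cells, had 234 ± 124 CPM in type A and 466 ± 143 CPM in type B nuclei. Tmem117 had 5284 ± 1481 CPM in type A and 9360 ± 2086 CPM in type B nuclei. Both were lower in type A in all 6 libraries.

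The proton pump was present in both intercalated types. Atp6v0d2, the membrane-sector subunit of the intercalated pump, was detected in 69.9% of type A nuclei (median 964 UMIs a nucleus), in 72.3% of type B nuclei (median 999.5) and in 3.65% of 50561 proximal tubule nuclei (at least 3 UMIs in all of Slc34a1, Lrp2 and Cubn; median 1983 UMIs), which show the level that stray RNA can give. Its level was 1044 ± 194 CPM in type A, 1402 ± 226 CPM in type B and 33.0 ± 7.6 CPM in all other nuclei. Atp6v0d2 was lower in type A than in type B in all 6 libraries. Atp6v1g3, a stalk subunit, had 783 ± 176 CPM in type A, 948 ± 248 CPM in type B and 24.3 ± 5.7 CPM in the other nuclei. Atp6v1b1, the catalytic-sector subunit whose human gene is mutated in distal renal tubular acidosis with deafness, had 495 ± 310 CPM in type A, 319 ± 122 CPM in type B and 22.2 ± 5.5 CPM in the others. Atp6v0a4, the other subunit tied to that disease, had 1524 ± 351 CPM in type A and 1382 ± 146 CPM in type B nuclei, with 670 ± 153 CPM in the others.

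Foxi1, the forkhead factor upstream of both types, had 4 UMIs in the 103 nuclei. Its binding core was searched in promoters of intercalated genes, and the promoter of Atp6v1b1 is shown because it alone held the core. The letters TGTTTAC, or GTAAACA on the other strand, were searched in windows from 250 bases before to 50 after the start of 15 intercalated genes, of which 12 were in the RefSeq promoter table (build GRCm38.p6). Of the 12, Atp6v1b1 held the core, and 3.65% of all 32851 windows in the table held it. In the 250 bases before the start of Atp6v1b1 (chr6:83742767-83743016, plus strand) the capitals mark the core, whose first base lies 98 bases before the start.
Atp6v1b1: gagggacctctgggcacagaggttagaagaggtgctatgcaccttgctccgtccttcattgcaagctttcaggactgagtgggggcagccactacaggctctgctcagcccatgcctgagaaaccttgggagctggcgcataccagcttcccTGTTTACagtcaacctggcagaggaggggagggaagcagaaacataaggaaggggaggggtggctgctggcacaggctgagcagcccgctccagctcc
The other 11, among them Atp6v1g3, Atp6v1c2, Atp6v0a4, Kit, Clnk, Aqp6 and Foxi1 itself, did not hold these letters in their windows. A match to letters is no measure of binding.

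Among regulators, Tfcp2l1, a transcription factor that intercalated cells need, was detected in 90 of 103 nuclei with 2255 ± 546 CPM, against 1488 ± 292 CPM in type B and 429 ± 109 CPM in the other nuclei. Nr3c2, the mineralocorticoid receptor, had 1787 ± 316 CPM in type A and 1303 ± 343 CPM in type B nuclei. It was higher in type A in all 6 libraries. Of other acid-base genes, Car2 had 561 ± 142 CPM in type A and 362 ± 86.8 CPM in type B nuclei, and Rhbg, the basolateral ammonia channel, had 20 UMIs in type A nuclei. Bsnd, the accessory subunit of basolateral chloride channels, had 10 UMIs in type A nuclei. Slc12a7, a potassium-chloride cotransporter, had 9 UMIs, and the potassium channel gene Kcnma1 had 4. Avpr1a, a vasopressin receptor described in intercalated cells, had 0 UMIs in type A nuclei, which allows up to 25.3 CPM over the 6 libraries, and 6 UMIs in type B nuclei.

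Outside the rule, genes with at least 25 UMIs in at least 15 type A nuclei were ranked by the ratio of their mean level to that of all other nuclei. The ranking was led by Adgrf1 (73.1-fold), Pdlim3 (54.7-fold), Rorb (52.4-fold), Adgrf5 (52.0-fold), Asb15 (47.6-fold), Eya2 (41.9-fold) and Rcan2 (36.8-fold). Rcan2, a regulator of the phosphatase calcineurin, was detected in 81 of 103 nuclei. Eya2, a phosphatase and transcriptional coactivator, was 58.0-fold higher in type A than in type B nuclei. Its mean type B level lay under 7.09 CPM, the level of 3 UMIs over all type B nuclei, so the size of this ratio is uncertain. Rorb, an orphan nuclear receptor, was 1.52-fold higher in type A than in type B nuclei, and the ranking thus holds genes of both types.

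The type A nuclei varied among themselves in 4 of these genes, which were picked after their values were seen. Rorb was detected in 20 of the 103 nuclei and Malrd1 in 50, and 2 nuclei held both. Malrd1, a gene described in bile acid signalling of the gut, was thus detected in 10.0% of the nuclei with Rorb and in 57.8% of the 83 without it. Hs6st3, a heparan sulfate sulfotransferase, was detected in 30.0% of the nuclei with Rorb and in 51.8% of those without it. The nuclei with Rorb were not shallower, with a median of 1061.5 UMIs against 905 in those without it.

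Nuclei with Slc26a7 also rarely held Malrd1, which was detected in 2 of the 14 nuclei with Slc26a7 (14.3%) and in 53.9% of the 89 without it, at medians of 982.5 and 964 UMIs. Hs6st3 was likewise detected in 2 of the 14 and in 52.8% of the 89. Hs6st3 and Malrd1 were detected together in 34 nuclei. Calcr was detected in 0 of the 20 nuclei with Rorb and in 17 of the 83 without it. With Rorb and Slc26a7 taken as 1 set, 30 nuclei held either gene, and Malrd1 was detected in 4 of these and in 46 of the other 73. The pump subunit Atp6v0d2 did not follow this split, at 1032 CPM in the 30 and 1066 CPM in the 73 nuclei, and neither did Adgrf5, at 2166 and 2395 CPM, or Kit, at 1522 and 1705 CPM.

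The same genes were then counted in the type B nuclei, whose nuclei with and without Rorb were not looked at when the genes were picked. Malrd1 was detected in 5 of 59 type B nuclei with Rorb (8.47%) and in 194 of 317 without it (61.2%). Hs6st3 was detected in 0 of the 59 and in 89 of the 317 (28.1%). In proximal tubule nuclei, 6.86% of which held Malrd1, it went the other way, at 23.7% of 473 nuclei with a Rorb UMI and 6.70% of the 50088 without one. Hs6st3 did so too, at 18.4% and 4.39%. The depth of proximal tubule nuclei with and without Rorb was not compared, so their shares are no check of the split. Nuclei of 1 library are not replicates, so these shares are a description. Nuclei with Rorb or Slc26a7 were found in all 6 libraries, numbering 5, 6 and 8 in knockouts 1, 2 and 3 and 1, 3 and 7 in controls 1, 2 and 3.

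**Figure D2:**
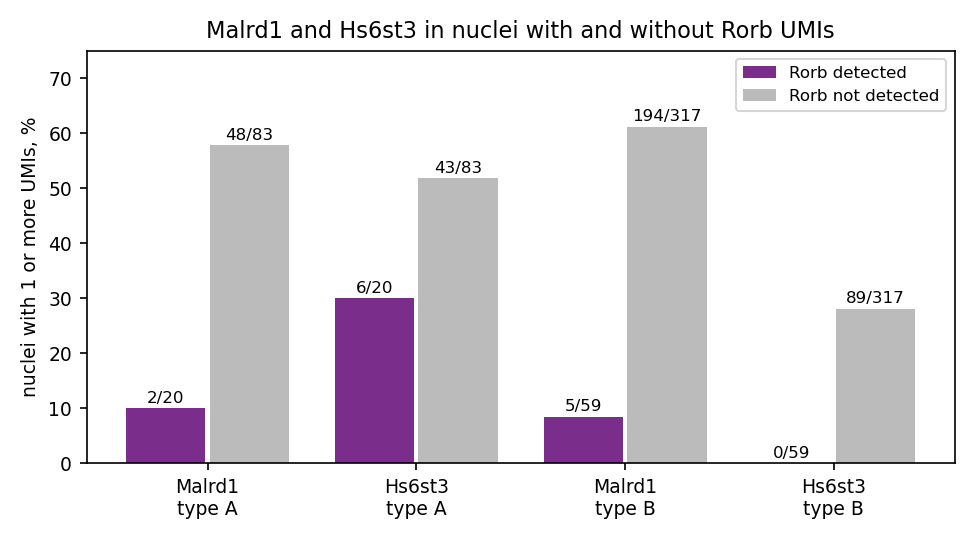
Percent of nuclei with 1 or more UMIs of Malrd1 or Hs6st3 (vertical axis) among type A and type B nuclei with Rorb detected (left bar of each pair) and not detected (right bar); the counts stand above the bars. Malrd1 was detected in 10.0% of type A nuclei with Rorb and 57.8% of those without it, and in 8.47% and 61.2% of the type B nuclei.

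The comparison of knockout with control asks whether loss of Klf4 from podocytes goes with a difference in these cells. As a share of kept nuclei, type A nuclei made up 0.0906% in knockout 1 (95% interval 0.0554 to 0.140%), 0.275% in knockout 2 (0.151 to 0.462%) and 0.495% in knockout 3 (0.334 to 0.706%). They made up 0.0255% in control 1 (0.00826 to 0.0594%), 0.286% in control 2 (0.143 to 0.511%) and 0.439% in control 3 (0.279 to 0.659%). The intervals are exact Clopper-Pearson intervals and cover counting error only. The lowest share of each group came from the library numbered 1, and the groups overlapped. The mean was 0.287 ± 0.202% in the knockouts and 0.2503 ± 0.209% in the controls (SD, n = 3 each), a difference of 0.0366 percentage points (two-sided exact permutation test, p = 0.80, where the smallest p that 3 against 3 allows is 0.10).

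Without control 1 the difference was -0.0758 points, and without knockout 3 it was -0.0673 points, so its direction rested on these libraries. It was also negative, at -0.0504 points, when proximal tubule nuclei were left out of the count of all nuclei. Of the nuclei called type A or type B by their rules, type A nuclei made up 22.9 ± 6.69% in the knockouts and 19.6 ± 5.84% in the controls (SD, n = 3 each; two-sided exact permutation test, p = 0.50). The rules are unlike and leave out intercalated nuclei in neither class, so these are not shares of all intercalated nuclei. With each nucleus thinned to 1000 UMIs, 20 knockout and 17 control nuclei passed the rule. The mean share was 0.107% in the knockouts and 0.0882% in the controls. The exclusion limits were also read on thinned counts, so nuclei outside the type A set could pass. Those that passed numbered 9, 2 and 9 in knockouts 1, 2 and 3, and 8, 0 and 9 in controls 1, 2 and 3. Under a stricter rule, of at least 5 marker UMIs with 3 markers detected, 15 knockout and 4 control nuclei remained, with mean shares of 0.0617% in the knockouts and 0.0208% in the controls (two-sided exact permutation test, p = 0.20). Thinning left out 2899, 1549 and 1941 shallower nuclei in the knockouts and 1001, 1763 and 1177 in the controls.

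**Figure D3:**
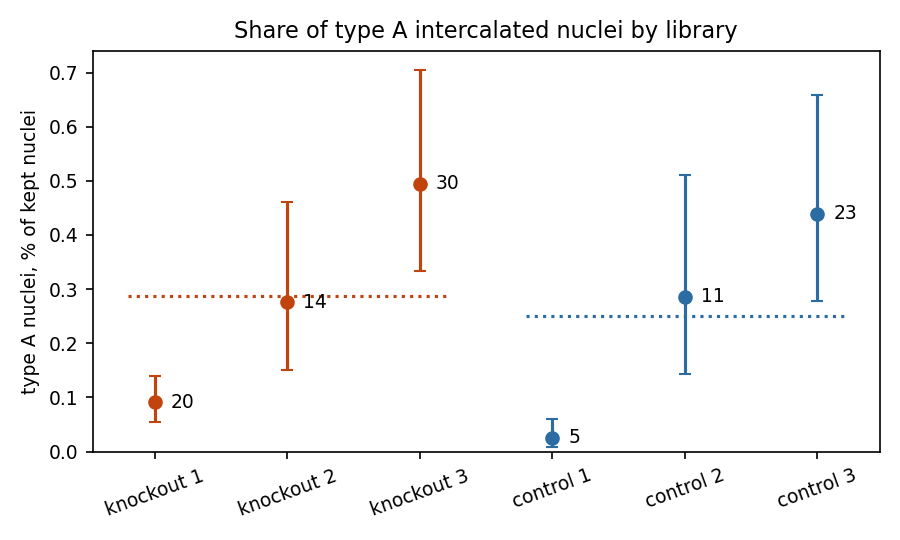
Type A nuclei as a percent of kept nuclei (vertical axis) in each library, with exact 95% intervals; numbers are the nuclei counted and dotted lines the group means. The knockouts run between 0.0906% and 0.495% and the controls between 0.0255% and 0.439%, with the libraries numbered 1 lowest in both groups.

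Gene levels were compared on UMI sums over the type A nuclei of a library, in libraries with at least 10 such nuclei. Control 1, with 5, was therefore left out of this fit, which set 3 knockouts against 2 controls. With edgeR's quasi-likelihood test, 0 of 566 genes tested passed an adjusted p of 0.05 (0% of genes called), and the smallest adjusted p was 0.55. Without adjustment, 36 genes (6.36%) had a p under 0.05, 18 higher and 18 lower in the knockouts. DESeq2 called 0 genes, with 9 under 0.05 unadjusted. The median standard error of a log2 change was 0.52, so small changes were not detectable at this depth. Large fitted changes, such as those of Kctd16 and Meis2 below, did not pass either. The count of 0 thus does not show that levels were alike. The CPM of the 6 libraries did not overlap between the groups in 30 of the 566 genes with the knockouts higher (5.3%) and in 29 with the knockouts lower (5.12%), 10.4% in all. Over all other nuclei of the 6 libraries, 30 of 16305 genes (0.184%) passed the same test.

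Among acid-base genes, Car2 had 16, 6 and 11 UMIs in knockouts 1, 2 and 3, against 6, 5 and 21 UMIs in controls 1, 2 and 3, which is 532, 517 and 350 CPM against 625, 562 and 781 CPM. The knockout levels lay below all 3 control levels, as in 5.12% of all genes tested. Its fitted log2 change over 5 libraries was -0.49 (95% interval -1.45 to 0.47, adjusted p = 0.93 by edgeR), and in the larger set of nuclei described below it was near 0. Rhcg had 632, 431 and 763 CPM in the knockouts, against 312, 225 and 558 CPM in the controls, with overlapping groups and a log2 change of 0.62 ± 0.50 (SE; adjusted p = 0.92 by edgeR). The Rhcg value was 1.62 without control 3 and 0.26 without control 2. Slc26a7 had a log2 change of -0.25 (95% interval -2.03 to 1.53). Slc4a9, the type B exchanger, had a log2 change of -0.69 (-1.80 to 0.42), and the sodium bicarbonate cotransporter gene Slc4a4 one of -0.75 ± 0.49 (SE; adjusted p = 0.85 by edgeR). Of the 22 acid-base genes outside the rule, 8 were tested and 0 passed, 3 with higher and 5 with lower values, and a median log2 change of -0.16 against 0.02 over all genes tested. The balance was the other way in nuclei chosen by proton pump genes, with 6 higher and 1 lower of 7 tested, 0 passing and a median of 0.40 against -0.01.

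Of 24 proton pump subunits and accessory genes, 20 had UMIs, 7 were tested and 0 passed. Atp6v0d2 had 732, 1119 and 1239 CPM in knockouts 1, 2 and 3, against 937, 1012 and 1228 CPM in controls 1, 2 and 3. The groups overlapped, with a log2 change of -0.06 (95% interval -0.93 to 0.81). Atp6v0a4 (-0.06, interval -0.88 to 0.76) and Atp6v1g3 (-0.07, interval -1.07 to 0.93) were close to this. The 2 subunits with the smallest p were Atp6v0b, at 0.60 ± 0.60, and Atp6v1h, at 0.55 ± 0.57 (log2 change ± SE; adjusted p = 0.93 each by edgeR). All 24 together took 0.542, 0.792 and 0.667% of type A UMIs in the knockouts, against 0.718, 0.618 and 0.718% in the controls. The 7 tested genes had a median log2 change of -0.06.

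Of regulators, Tfcp2l1 had 1663, 2238 and 2447 CPM in knockouts 1, 2 and 3, against 3226, 2023 and 1935 CPM in controls 1, 2 and 3. Its log2 change was 0.20 (95% interval -0.58 to 0.97) without control 1, and -0.23 with control 1 in the fit. The oestrogen-related receptor gene Esrrg had a log2 change of 0.47 ± 0.37 (SE), and 4 regulators were tested with 0 passing. Among 7 tested receptors and channels 0 passed. Nr3c2 had a log2 change of -0.07 (-0.83 to 0.70) and Adgrf5 one of -0.14 (-1.13 to 0.84). The chloride-proton exchanger Clcn5 (-1.29 ± 0.68, adjusted p = 0.80) and the kinase Stk39 (0.81 ± 0.50, adjusted p = 0.83) had the smallest p in that list by edgeR. Of the 8 tested genes listed as type A beyond the rule, 2 had higher and 6 lower values and 0 passed. In nuclei chosen by proton pump genes 7 had higher and 1 lower values of 8 tested, again with 0 passing, though Atp6v0d2 and Atp6v1c2 are there genes of the choice.

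**Figure D4:**
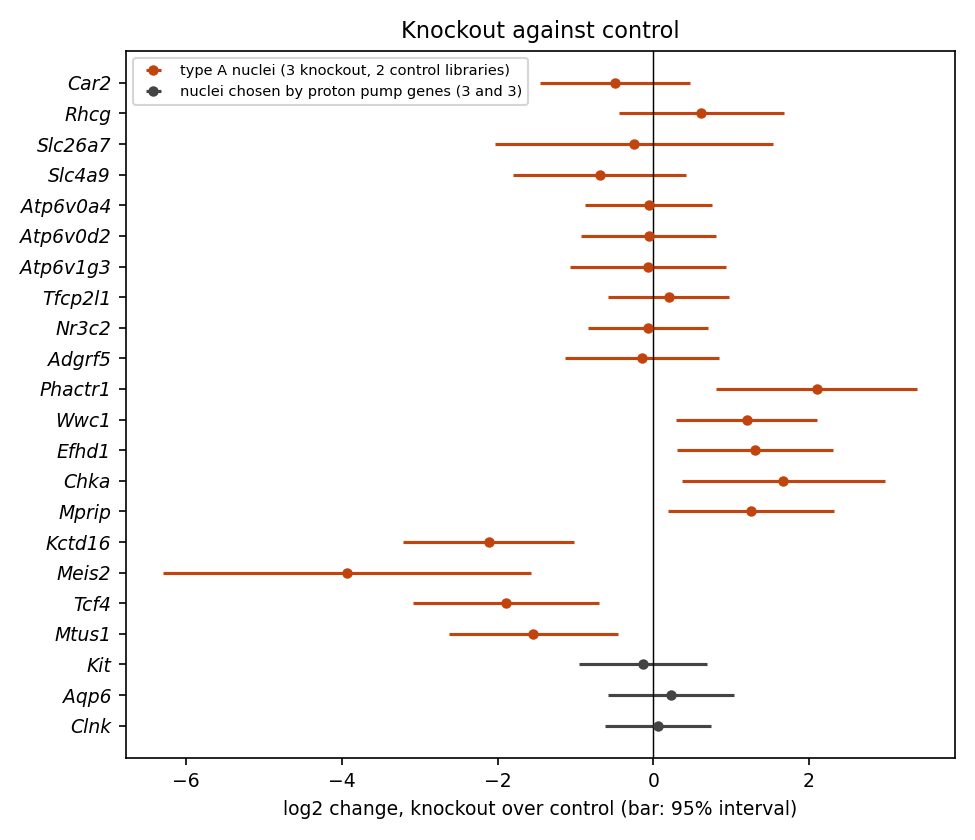
Log2 change, knockout over control, with its 95% interval (horizontal axis) for named genes in type A nuclei (3 knockout and 2 control libraries) and for 3 marker genes in nuclei chosen by proton pump genes (3 and 3 libraries). The acid-base, pump and regulator genes have intervals that hold 0; the genes from Phactr1 to Mtus1 were picked for the smallest p in each direction and none passed the adjusted threshold.

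The genes with the smallest p did not pass the test, and each direction is given by its values. Kctd16, a subunit associated with GABA-B receptors, had 166, 258 and 127 CPM in knockouts 1, 2 and 3, against 416, 1012 and 707 CPM in controls 1, 2 and 3. The groups did not overlap, also not with control 1, which the fit left out, as in 5.12% of all genes tested with the knockouts lower. The log2 change was -2.12 ± 0.52 (SE; adjusted p = 0.55 by edgeR), on 12 and 32 UMIs. In nuclei chosen by proton pump genes it was -0.94 ± 0.50 (SE; adjusted p = 0.79 by edgeR).

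Wwc1, a scaffold of the Hippo pathway also known as KIBRA, had 1630, 1378 and 1684 CPM in knockouts 1, 2 and 3, against 833, 562 and 856 CPM in controls 1, 2 and 3. Its groups did not overlap, with a log2 change of 1.20 ± 0.43 (SE). Efhd1, a mitochondrial calcium-binding protein, had 565, 947 and 890 CPM in the knockouts, against 0, 337 and 335 CPM in the controls, with a log2 change of 1.31 ± 0.47 (SE). Chka, a choline kinase, had 499, 344 and 572 CPM in the knockouts, against 208, 112 and 186 CPM in the controls, with a log2 change of 1.67 ± 0.61 (SE). Mprip, a scaffold of myosin phosphatase, had 466, 689 and 731 CPM in the knockouts, against 312, 225 and 298 CPM in the controls, with a log2 change of 1.26 ± 0.50 (SE). In each of the 4, every knockout lay above every control, as in 5.3% of all genes tested, and the adjusted p was 0.75 by edgeR. In nuclei chosen by proton pump genes Wwc1 had a log2 change of 0.64 ± 0.32 (SE), Efhd1 one of 1.05 ± 0.46, Chka one of 0.73 ± 0.43 and Mprip one of 0.09 ± 0.36 (adjusted p between 0.66 and 0.97 by edgeR).

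Phactr1, a regulator of actin and protein phosphatase, had 43, 18 and 17 UMIs in knockouts 1, 2 and 3, against 33, 3 and 7 UMIs in controls 1, 2 and 3. Its log2 change was 2.10 ± 0.60 (SE; adjusted p = 0.58 by edgeR) without control 1, and -0.24 with control 1 in the fit. In control 1, 27 of the 33 UMIs came from 1 nucleus, and Phactr1 was detected in 19 of the 103 nuclei in all.

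Among genes with lower values in the knockouts, Meis2 and Tcf4 had many of their control 3 UMIs in 1 nucleus of 3407 UMIs. Meis2, a homeobox factor, had 1, 0 and 1 UMIs in knockouts 1, 2 and 3, against 1, 4 and 16 UMIs in controls 1, 2 and 3, and 13 of the 16 were in that nucleus. The same nucleus held 11 of the 17 control 3 UMIs of Tcf4 and 4 of the 6 UMIs of the endothelial gene Emcn in all type A nuclei. The list of endothelial markers took 3, 0 and 1 UMIs in the knockouts, against 2, 8 and 31 UMIs in the controls, with Flt1 at 0 by the rule. Meis2 is itself in this list and its UMIs are part of these counts, so the list is not separate from it. The log2 change was -3.93 ± 1.11 for Meis2 (adjusted p = 0.58 by edgeR) and -1.89 ± 0.56 for Tcf4 (SE). Without control 3 it was -2.24 for Tcf4, which is no nearer to 0, and Meis2 had too few counts there to be tested. Mtus1, a microtubule-associated protein, had 6, 3 and 7 UMIs in the knockouts, against 1, 9 and 15 UMIs in the controls, with at most 3 UMIs in any nucleus and a log2 change of -1.54 ± 0.51 (SE; adjusted p = 0.75 by edgeR).

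Of the genes that split the type A nuclei, Rorb had 499, 775 and 890 CPM in knockouts 1, 2 and 3, against 312, 562 and 223 CPM in controls 1, 2 and 3, with overlapping groups. Hs6st3 had 1031, 861 and 826 CPM in the knockouts, against 1249, 1686 and 2269 CPM in the controls. Its groups did not overlap, as in 5.12% of all genes tested with the knockouts lower. The log2 change was 1.22 ± 0.52 for Rorb and -1.01 ± 0.39 for Hs6st3 (SE; adjusted p = 0.75 each by edgeR). In nuclei chosen by proton pump genes, Hs6st3 had a log2 change of -0.70 ± 0.30 (SE; adjusted p = 0.66 by edgeR). Malrd1 had a log2 change of -0.23 ± 0.47 (SE; adjusted p = 0.97 by edgeR).

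Lists of response genes were thinly counted in the type A nuclei. Innate defence genes had 25 UMIs in the knockout and 17 UMIs in the control nuclei, of which Nfkb1, a subunit of the inflammatory factor NF-kappa-B, had 9 and 8. Tubule injury and stress genes had 24, 2 and 4 UMIs in knockouts 1, 2 and 3, against 3, 3 and 4 UMIs in controls 1, 2 and 3. The injury gene Spp1, osteopontin, had 5, 1 and 2 UMIs in the knockouts, against 0, 1 and 0 UMIs in the controls. Cell cycle genes had 26, 1 and 4 UMIs in the knockouts, against 0, 1 and 8 UMIs in the controls, so that knockout 1 held most of both lists. Interferon and antigen presentation genes took 0.0366, 0.00861 and 0.00635% of UMIs in the knockouts, against 0.0520, 0.0674 and 0.0558% in the controls. This list of 22 genes did not overlap between the groups, on 14 and 26 UMIs, and 2 other lists of the 24, of endothelial and of distal convoluted tubule markers, did not overlap either. The interferon list did overlap in nuclei chosen by proton pump genes, at 0.0513, 0.0100 and 0.00551% in the knockouts, against 0.0462, 0.0333 and 0.0391% in the controls. None of the genes of the innate, injury, interferon, cell cycle and Notch lists had enough counts to be tested.

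Of 26 oxidative metabolism genes, 4 were tested and 0 passed. The lactate dehydrogenase subunit gene Ldhb had the smallest p, with a log2 change of 1.53 ± 0.73 (SE; adjusted p = 0.75 by edgeR). The one matrix and fibrosis gene tested, the integrin subunit gene Itgav, had a log2 change of -0.21 ± 0.88 (SE). Among markers of other cells, 7 of the proximal tubule were tested, 2 with higher and 5 with lower values and 0 passing. Of these, Keg1 was at 0.84 ± 0.56 and Acsm2 at -0.67 ± 0.47. Slc8a1, of the connecting tubule, was at 0.90 ± 0.72, with 32 of its 38 knockout 2 UMIs in 1 nucleus. Erbb4 and Wnk1, of the distal convoluted tubule list, were at -0.71 ± 0.54 and -0.52 ± 0.47, and Magi2, of the podocyte list, at 1.11 ± 0.71 (log2 change ± SE; adjusted p between 0.85 and 0.93 by edgeR).

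Since the rule fixes high levels of Kit, Aqp6, Clnk and Slc4a1, these genes were compared in nuclei chosen without them. The choice was at least 3 UMIs in all of Atp6v0d2, Atp6v1g3, Atp6v1c2, Atp6v0a4 and Foxi1, at least 2 of them detected, with the same exclusions. It took 59, 36 and 51 nuclei in knockouts 1, 2 and 3, against 19, 21 and 38 in controls 1, 2 and 3, and shared 75 nuclei with the type A set. Kit had 562, 1134 and 955 CPM in the knockouts, against 347, 1167 and 1281 CPM in the controls. Its log2 change was -0.13 ± 0.38 (SE; adjusted p = 0.96 by edgeR), with a 95% interval of -0.95 to 0.70. Aqp6 had 257, 300 and 294 CPM in the knockouts, against 144, 278 and 282 CPM in the controls, a log2 change of 0.23 ± 0.37 (SE; adjusted p = 0.93 by edgeR). Clnk had 440, 801 and 881 CPM in the knockouts, against 433, 722 and 760 CPM in the controls, a log2 change of 0.06 ± 0.31 (SE; adjusted p = 0.98 by edgeR). The groups overlapped in all 3 genes, and Slc4a1, with 8, 3 and 15 UMIs in the knockouts, against 1, 1 and 9 UMIs in the controls, had too few counts to be tested.

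In these nuclei 0 of 771 genes passed the test (0% called), with 53 under an unadjusted p of 0.05, and DESeq2 called 0, with 42 under 0.05. Proximal tubule markers had lower values in the knockouts for 9 of the 10 that were tested, with a median log2 change of -1.06, against -0.01 over all genes tested. Their list outside the rule took 0.798, 0.484 and 0.389% of UMIs in knockouts 1, 2 and 3, against 2.29, 0.889 and 0.441% in controls 1, 2 and 3. The groups overlapped, and control 1 held the highest share. Cyp4b1 and Lrp2, genes of proximal tubule cells, were at -1.94 ± 0.59 and -1.14 ± 0.38 (log2 change ± SE; adjusted p = 0.66 each by edgeR). With the replicate number as a block 9 genes passed, 1 higher and 8 lower in the knockouts. Among the lower ones were Cyp4b1, at -1.93 (adjusted p = 0.0021 by edgeR), Gpx3, at -1.56 (adjusted p = 0.00031), and Slc27a2, at -1.51 (adjusted p = 0.0024), all of which proximal tubule cells express.

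The difference between knockout and control in type A nuclei was also compared with that in other nuclei of the same libraries. Against all other kept nuclei, in all 6 libraries with the 5 nuclei of control 1, 0 of 252 genes differed at an adjusted p of 0.05 (0% called), with 10 under 0.05 unadjusted and a smallest adjusted p of 0.97 by edgeR. Lncpint, a long noncoding RNA, had the smallest p, with a difference of 1.51 ± 0.57 in log2 change (SE). Against type B nuclei, 0 of 566 genes differed (0% called), with 30 under 0.05 unadjusted. The smallest p there was that of Meis2, with a difference of -4.54 ± 1.18 in log2 change (SE; adjusted p = 0.30 by edgeR), and 13 of the 16 Meis2 UMIs of control 3 type A nuclei were in 1 nucleus. DESeq2 was not run on these differences.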

How the data were processed

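Nuclear RNA of kidney cortex was counted per nucleus in 3 knockout and 3 control libraries (10x Chromium). Per the file headers, the authors ran Cell Ranger 3.1.0, and the deposited values are unnormalized UMI counts of each gene in each barcode, on build mm10 per the submitters' processing notes, which also name Seurat. The sources used here state neither aligner settings nor annotation release. No annotation of cells was used, so classes were rebuilt from marker genes and may differ from the study's.

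The members, gene lists and alternatives were chosen with earlier results of these data known. Summed UMI counts of each class in a library were compared with edgeR 4.0.16 (quasi-likelihood, TMM scaling, low-count filter by group, Benjamini-Hochberg adjustment over all genes tested, threshold 0.05) under R 4.3.3. The genes of the rule were left out of the type A tests and of the differences between classes. They were kept in the tests of all other nuclei and of nuclei chosen by proton pump genes. DESeq2 1.42.0 was an alternative. Libraries with fewer than 10 type A nuclei were left out of the main type A gene test and of the difference from type B nuclei. The difference from all other nuclei kept them. Differences between classes were fitted as interactions with library as block. Shares were compared by exact permutation over libraries. CPM is scaled to the UMI total of a class in a library. The edgeR step was tested on simulated data.

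Barcodes scored highest by Scrublet (scanpy 1.11.5), at 0.8% per 1000 barcodes, were left out in an alternative, which removed none of the type A nuclei. Fixed genes of acid secretion are named whatever their values, then the 5 with the smallest p in each direction (clone, mitochondrial and ribosomal names aside), and per list the 2 with the smallest p; some genes so chosen are not reported here. The libraries' labels name no batch, but deviations from the group means correlated between same-numbered libraries at 0.712, 0.393 and 0.468 over all other nuclei, and at 0.428, 0.0976 and 0.266 in nuclei chosen by proton pump genes. In type A nuclei, without control 1, the values were -0.0549 for the libraries numbered 2 and 0.0835 for those numbered 3. Deviations of controls 2 and 3 from their shared mean are there exact opposites, so these values cannot show whether same-numbered libraries deviate together. The main tests of knockout against control did not pair the libraries. The replicate number was fitted as a block in an alternative only, which is given beside results it changes. Over all other nuclei, knockout 2 correlated with control 3 at 0.451, above its own number, and knockout 3 with control 2 at 0.427.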

Additional observations from a re-analysis of the deposited data

How the results depend on the processing

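The count of 0 genes in type A nuclei held under other size factors, no low-count filter (0 of 11187), DESeq2, the replicate block, each left-out library (0 to 0), and with control 1 and its 5 nuclei (0 of 252), an alternative chosen after seeing the data. Leaving out doublets or nuclei over 6000 UMIs changed no member. The stricter rule, of 5 UMIs and 3 genes, left fewer than 10 nuclei in every library and could not be fitted. In nuclei chosen by proton pump genes the count was 4 with no filter (Slc7a13 lower; Kcnip4, Ranbp3l and Lsamp higher) and 5 without both libraries numbered 1 (Meis2 and Magi2 lower; Gramd1b, Rbms3 and Lsamp higher). The difference from all other nuclei had 1 call without both libraries numbered 1, Trps1 at -2.31. The cause was not tested.

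The share difference was -0.0504 points without proximal tubule nuclei, and between -0.0758 and 0.135 over left-out libraries. Direction of log2 changes that did not pass also turned. In the pump-chosen nuclei, values were 0.00065 for Car2, 0.22 for Adgrf5, 0.037 for Nr3c2, 0.049 for Slc4a9 and -0.49 for Phactr1, and 0.13 for Atp6v0a4 and 0.33 for Atp6v0d2, whose UMIs chose those nuclei. With control 1 they were -0.23 for Tfcp2l1 and -0.24 for Phactr1, and Kit was at 0.065 with no filter. Over left-out libraries, log2 changes ran between -0.23 and 0.054 for Atp6v0a4, -0.21 and 0.14 for Atp6v0d2, -0.47 and 0.28 for Atp6v1g3, -0.71 and 0.36 for Adgrf5, -1.16 and 0.87 for Slc4a9, -0.47 and 0.24 for Kit and -0.12 and 0.28 for Clnk, and Slc26a7 was at 0.14 without control 2. Of the other results for genes, 229 kept direction and side of the threshold.

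With the replicate number as a block, type A nuclei again had 0 calls and pump-chosen nuclei had 9, among them Slc27a2, Pck1, Cyp4b1, Kap, Acsm2, Gpx3 and Gm42418 with lower and Bmpr1b with higher values. Atp6v0a4 was at 0.058, Atp6v0d2 at 0.078 and Adgrf5 at 0.14 under the block. The block changed no other call among the gene tests and the share it was run on. Depth, at 8897 to 31472 UMIs per library, limits every gene result.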
